A study of Mus musculus with 8 samples.

Results

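The genes described here encode the sodium, calcium, HCN and TRP channels of embryonic mouse sympathetic ganglia, together with the calcium release channels of the endoplasmic reticulum. They were taken by symbol: voltage-gated sodium channel subunits (Scn), voltage-gated calcium channel subunits (Cacn), HCN channels (Hcn), TRP channels of the A, C, M and V families, ryanodine receptors (Ryr) and inositol trisphosphate receptors (Itpr). The rule found 49 genes among the 14189 gene symbols listed at either stage, 44 of them in the E11.5 table and 48 in the E14.5 table, with 43 in both. 1 gene was listed only at E11.5, and Cacnb4, Itpr2, Ryr1, Trpm3 and Trpv1 only at E14.5. A gene had to reach 1 FPKM (fragments per kilobase of transcript, scaled to the mapped fragments of the library) in at least 1 genotype to be in a table, so these are the channel genes that passed a filter on low values.

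RNA was sequenced from sympathetic ganglia at 2 stages and in 4 groups of 2 libraries. Ganglia of about 10 embryos of a genotype were pooled at RNA extraction, and the study's methods call the 2 libraries of a group biological repeats. At E11.5, Isl1 CKO ganglia (Wnt1-Cre; Isl1 f/f, labelled Isl1-/-) were compared with controls that carried the same Wnt1-Cre driver and the intact gene (Isl1 +/+, labelled wild type), both with a Rosa26-tdTomato reporter that guided the removal of non-fluorescent tissue. Wnt1-Cre acts in the neural crest, so sympathetic neurons and glia carry the deletion and cells from outside the crest do not. At E14.5, Isl1 hypomorphs (Isl1 f-neo/f-neo, labelled as carrying an Isl1 mutation), whose allele lowers Isl1 in every cell that expresses it, were compared with wildtype embryos without a driver or a fluorescent reporter. ISL1 is a LIM homeodomain transcription factor of sympathetic and sensory neurons. The authors combined the libraries of a genotype into 1 FPKM per gene, so no value below has a standard deviation or a replicate check, no test was run on them here, and the sequencing depth behind the values is unknown. A gene was counted as higher or lower when the genotypes were at least 1.5-fold apart on the log2(FPKM + 0.1) scale, which understates the fold of genes near the limit of the table.

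Isl1 itself was listed at 133 FPKM in E11.5 controls and 40.0 FPKM in CKO ganglia, and at 162 FPKM in E14.5 wildtype and 83.1 FPKM in hypomorph ganglia. All 16 genes of a list of sympathetic identity genes were in both tables, led by Dbh, an enzyme of noradrenaline synthesis, at 543 FPKM in E11.5 controls and 608 FPKM in E14.5 wildtype ganglia. In the E11.5 CKO, 9 of the 16 were lower (56.2%, against 12.9% of all genes) and 0 higher. Their median log2 ratio was -0.67, and Dbh (0.13) was the 1 gene above 0. In the E14.5 hypomorph, 2 were lower and 1 higher (median -0.10). Marker genes of several cell types differed between the E11.5 columns: 10 of 25 pan-neuronal genes were lower and 0 higher in the CKO (median log2 ratio -0.46). Higher levels were found for 13 of 15 genes of neural crest and glia (median 1.06), 8 of 9 of macrophages, 6 of 10 of mesenchyme and 9 of 18 of skeletal muscle. The summed FPKM of 11 erythroid genes was 10900 in controls and 69100 in the CKO. Within these sums Hbb-y was at 7550 FPKM in controls and 0 FPKM in the CKO, while 10 of the 11 were higher in the CKO. At E14.5 the median was -0.28 for pan-neuronal, 0.12 for neural crest and glial, -0.14 for skeletal muscle, 0.28 for mesenchyme and 0.27 for macrophage genes, each closer to 0 than at E11.5, and 0.46 for endothelial genes, which had a median of 0.42 at E11.5. In whole ganglia, fewer cells of a type and less RNA per cell cannot be told apart, and this holds for every level below.

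As background, a neuron fires when voltage-gated sodium channels open and depolarise the membrane. Voltage-gated calcium channels then admit the calcium that releases transmitter at terminals, and that calcium reaches the nucleus and the growth cone as a signal. Each of these channels is built on a large pore-forming alpha subunit that auxiliary subunits traffic and tune. HCN channels carry an inward current that opens at negative potentials and sets rhythm and resting potential, TRP channels pass cations in response to receptors, lipids, temperature or stretch, and ryanodine and inositol trisphosphate receptors empty the calcium stores of the endoplasmic reticulum.

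In E11.5 CKO ganglia, 17 of the 44 channel genes (38.6%) were at least 1.5-fold lower than in controls, where 12.9% of all 13506 genes in the table were. The 7 that were higher (15.9%) stood against 18.9% of all genes. The median log2 ratio of the channel genes was -0.25, and that of all genes was 0.05. The FPKM of the channel genes summed to 561 in controls and 468 in CKO ganglia. The lower genes were spread over sodium pores, L-type and Cav2 calcium pores, the gamma subunits and the ryanodine receptors, and the higher ones over TRP channels and subunits of several other families. At E14.5 the hypomorph column was much closer to wildtype: 2 of 48 channel genes (4.17%) were lower by 1.5-fold, where 2.12% of all 13413 genes were, and 1 (2.08%) was higher, where 2.89% were. The median of the channel genes was -0.07 against 0.00 for all genes, and 31 of 48 lay below 0.

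**Figure D1:**
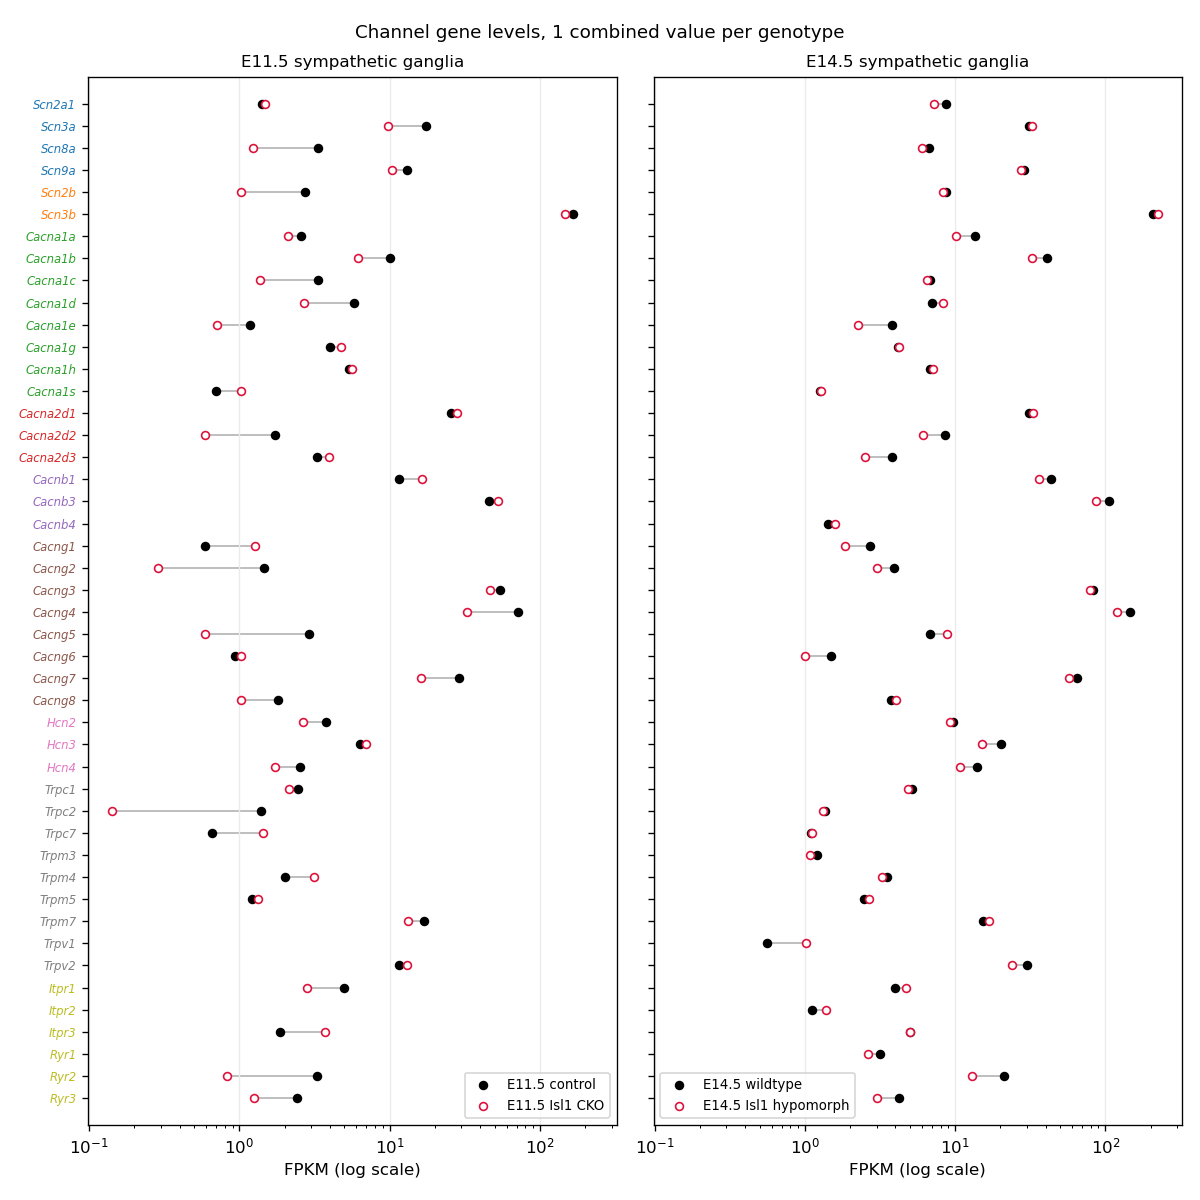
FPKM on a log axis for 46 of the 49 channel genes in control (black) and mutant (open red) ganglia, at E11.5 on the left and E14.5 on the right, each point being 1 value combined by the authors from 2 libraries and gene names coloured by channel class. The gaps between genotypes are wide at E11.5, widest for Trpc2 (1.39 and 0.142 FPKM), and short at E14.5, and Scn3b is the highest gene in every column (167, 147, 209 and 224 FPKM).

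Scn3a, an alpha subunit typical of embryonic neurons, and Scn9a, which encodes the alpha subunit Nav1.7 of peripheral neurons, made up most of the sodium channel pore RNA in every column. Scn3a was at 17.5 FPKM in E11.5 controls and 9.68 FPKM in the CKO (log2 ratio -0.85), and at 31.2 and 32.4 FPKM in E14.5 wildtype and hypomorph ganglia (0.05). Scn9a was at 13.1 and 10.3 FPKM at E11.5 (-0.35) and at 28.9 and 27.3 FPKM at E14.5 (-0.08). Scn8a, the alpha subunit of mature nodes and axon initial segments, was at 3.35 FPKM in E11.5 controls and 1.24 FPKM in the CKO (-1.36), and at 6.71 and 5.98 FPKM at E14.5 (-0.16). Thus Scn3a and Scn8a were past 1.5-fold at E11.5, Scn9a was within it, and none of the pores was past it at E14.5. Scn2a1, the alpha subunit of early initial segments, was level between genotypes at E11.5, with 1.41 and 1.49 FPKM (0.08). The 4 pore genes summed to 35.4 FPKM in E11.5 controls and 22.7 FPKM in the CKO, and to 75.4 and 72.8 FPKM at E14.5. Scn3a, Scn2a1 and Scn9a lie in 1 gene cluster, within 65295175 to 66473009 of chromosome 2 (mm9), and their E11.5 ratios differed.

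Sodium channel beta subunits are small membrane proteins that modify gating and also act in cell adhesion. Scn3b was by far the most abundant channel gene of the ganglia, at 167 and 147 FPKM in E11.5 control and CKO (-0.19) and at 209 and 224 FPKM in E14.5 wildtype and hypomorph (0.10). Scn2b was lower at E11.5. It was at 2.75 FPKM in controls and 1.02 FPKM in the CKO (-1.35), and at 8.64 and 8.25 FPKM at E14.5 (-0.07), within the limit.

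Proteins that bind or place sodium channels were examined as a list of 16, of which 14 were in the E11.5 table. Of these, 5 were lower in the CKO (35.7%, against 12.9% of all genes) and 0 higher (against 18.9%), with a median of -0.43. This list was not set against genes of like transcript length, and 35.3% of all genes with transcripts of 8 kb or more were lower. Ank2, an ankyrin that anchors channels along the axon, was at 98.5 FPKM in controls and 28.5 FPKM in the CKO (-1.79), and Nfasc, an adhesion molecule of the initial segment and node, at 23.8 and 7.98 FPKM (-1.56). Ank3, which encodes ankyrin-G, the organiser of the initial segment, was at 22.7 and 12.5 FPKM (-0.86). Unc79 and Unc80, accessory subunits of the sodium leak channel NALCN, had log2 ratios of -1.03 and -1.06. At E14.5, 2 of 15 were lower (13.3%, against 2.12% of all genes), Fgf14 (-0.77) and Sptbn4 (-0.71), and 0 were higher.

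The 3 Cav2 calcium channel genes encode the pores that trigger transmitter release, and all had log2 ratios below 0 at both stages. Cacna1b, the pore of the N-type channel that dominates in sympathetic neurons, was at 10.0 FPKM in E11.5 controls and 6.12 FPKM in the CKO (-0.71), and at 40.6 and 32.6 FPKM in E14.5 wildtype and hypomorph (-0.32). Cacna1e, the R-type pore, was at 1.18 and 0.708 FPKM at E11.5 (-0.67) and at 3.82 and 2.24 FPKM at E14.5 (-0.74). Cacna1a, the P/Q-type pore, was at 2.58 and 2.12 FPKM (-0.28) and at 13.5 and 10.2 FPKM (-0.40). Cacna1e was therefore past 1.5-fold at both stages, Cacna1b at E11.5 alone, and Cacna1a at neither. Summed, the Cav2 genes were at 13.8 and 8.94 FPKM at E11.5 and at 58.0 and 45.0 FPKM at E14.5.

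The L-type pores, which couple depolarisation to gene expression in neurons and to contraction in muscle, split at E11.5. Cacna1c was at 3.32 FPKM in controls and 1.37 FPKM in the CKO (-1.22), and Cacna1d was at 5.75 and 2.69 FPKM (-1.07). At E14.5 neither was past 1.5-fold, with 6.81 and 6.52 FPKM for Cacna1c (-0.06) and 7.02 and 8.26 FPKM for Cacna1d (0.23). Cacna1s, the L-type pore of skeletal muscle, was low at both stages, and its E11.5 ratio was positive (0.696 and 1.03 FPKM, 0.51). The low-voltage T-type pores were within 1.5-fold on the deposited scale: Cacna1g was at 4.02 and 4.72 FPKM at E11.5 (0.22) and Cacna1h at 5.33 and 5.58 FPKM (0.06), and both had ratios within 0.06 of 0 at E14.5. Relative to the pan-neuronal median, and with ratios centred by transcript length, Cacna1g was higher by 1.5-fold at E11.5 and the T-type median was 0.61 and 0.56. Their summed FPKM was 9.35 in controls and 10.3 in the CKO, while that of the L-type pores was 9.76 and 5.09.

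**Figure D2:**
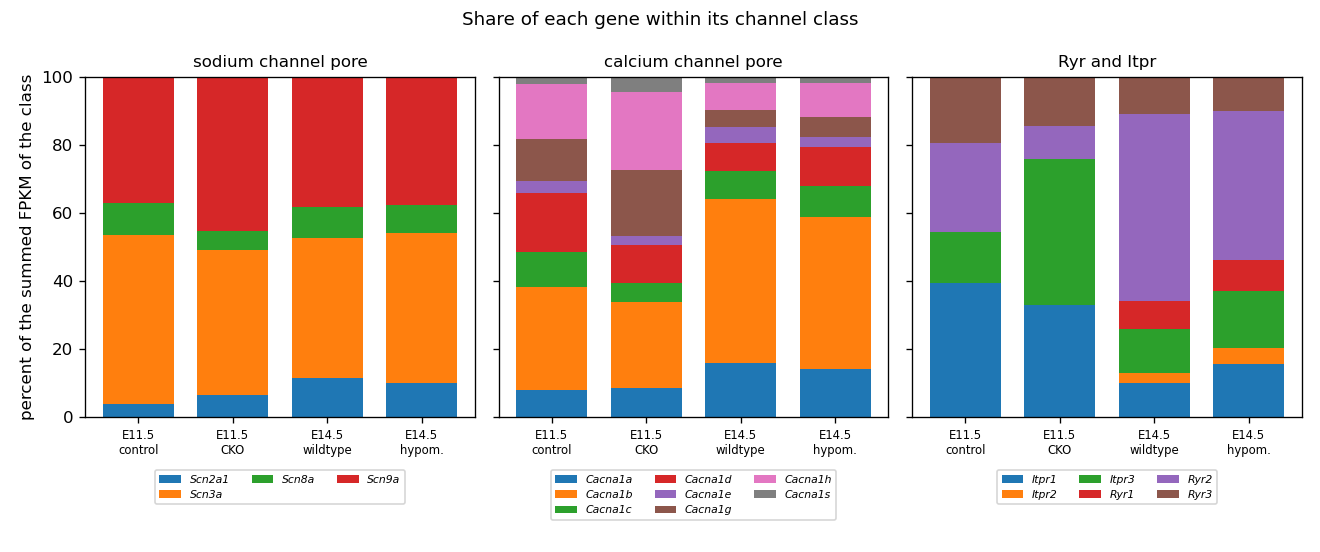
Share of each gene in the summed FPKM of its class (percent, stacked to 100) in the 4 columns, for sodium channel pores, calcium channel pores and the intracellular release channels. Cacna1b takes 30.5% of calcium pore FPKM in E11.5 controls and 48.3% in E14.5 wildtype ganglia, and Ryr2 takes 26.1% of release channel FPKM in E11.5 controls, 9.57% in the CKO and 55.0% in E14.5 wildtype ganglia.

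Shares within a class do not depend on how columns were scaled to each other. Among calcium pores, Cacna1b held the largest share in every column: 30.5% in E11.5 controls, 25.1% in the CKO, 48.3% in E14.5 wildtype and 44.9% in the hypomorph. The T-type genes held more of the E11.5 CKO pool than of its control, 22.9% against 16.2% for Cacna1h and 19.4% against 12.2% for Cacna1g, while Cacna1d held 11.1% against 17.5%. Among sodium pores, Scn3a was the leading gene in E11.5 controls (49.5%) and Scn9a in the CKO (45.3%, with Scn3a at 42.6%). In E14.5 wildtype ganglia Scn3a (41.3%) and Scn9a (38.3%) were close to each other, and Scn2a1 held 11.5% where it had held 3.98% in E11.5 controls.

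Among the auxiliary calcium channel subunits, the alpha2delta proteins, which carry channels to the surface, were led by Cacna2d1. It was at 25.8 and 28.0 FPKM at E11.5 (0.11) and 30.9 and 33.0 FPKM at E14.5 (0.10). Cacna2d2 differed, at 1.73 FPKM in E11.5 controls and 0.590 FPKM in the CKO (-1.41) and at 8.55 and 6.10 FPKM at E14.5 (-0.48). Cacna2d3 was at 3.29 and 3.97 FPKM (0.26) and at 3.79 and 2.53 FPKM (-0.56), just inside the 1.5-fold limit at E14.5. The cytoplasmic beta subunits were all within 1.5-fold. Cacnb3, the main beta partner of N-type channels, was at 46.0 and 52.9 FPKM at E11.5 (0.20) and 105 and 86.9 FPKM at E14.5 (-0.27), and Cacnb1, the beta subunit of muscle that neurons share, at 11.6 and 16.3 FPKM (0.49) and 43.8 and 36.3 FPKM (-0.27). Cacnb4, listed at E14.5 alone, was at 1.42 and 1.58 FPKM (0.15).

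Most genes named as calcium channel gamma subunits encode TARPs, transmembrane proteins that traffic and gate AMPA-type glutamate receptors. Of the 6 TARP genes, 5 were lower by 1.5-fold in the CKO at E11.5, and all 6 lay below 0 (median -0.98). Cacng4 was at 71.1 FPKM in controls and 32.5 FPKM in the CKO (-1.13), and Cacng7 at 28.8 and 16.2 FPKM (-0.83). Cacng5 was at 2.90 and 0.593 FPKM (-2.11). Cacng2, which encodes stargazin, was at 1.46 and 0.287 FPKM (-2.02). Cacng8 was at 1.81 and 1.03 FPKM (-0.75). The exception was Cacng3, at 54.6 and 46.6 FPKM (-0.23), so the differences were found in TARP genes at both high and low levels. Their summed FPKM was 161 in controls and 97.2 in the CKO. In the E14.5 hypomorph, no TARP gene was past 1.5-fold: Cacng4 was at 147 and 120 FPKM (-0.29), Cacng3 at 83.0 and 79.4 FPKM (-0.06), Cacng7 at 65.0 and 57.6 FPKM (-0.18), and the ratios of Cacng5 (6.80 and 8.82 FPKM, 0.37) and Cacng8 (3.73 and 4.03 FPKM, 0.11) were above 0.

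Cacng1, by contrast, encodes the gamma subunit of the skeletal muscle calcium channel. It was at 0.591 FPKM in E11.5 controls and 1.27 FPKM in the CKO (0.99), and at 2.72 and 1.84 FPKM at E14.5 (-0.53). Skeletal muscle genes moved with it at E11.5, 9 of 18 being higher and 0 lower, with a summed FPKM of 399 in controls and 658 in the CKO and Actc1, a sarcomeric actin, at 103 and 173 FPKM. Their part in the levels of Cacng1 and Cacna1s was not tested. Cacng1, Cacng4 and Cacng5 lie next to each other on chromosome 11, from 107564532 to 107776369 (mm9), and the E11.5 ratio of Cacng1 had the opposite sign to those of its neighbours. In the cluster of Cacng7, Cacng8 and Cacng6 on chromosome 7, from 3333055 to 3435658, Cacng7 and Cacng8 were lower and Cacng6, whose product resembles the muscle gamma subunit, was at 0.929 and 1.03 FPKM (0.13).

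Hcn3 was the most abundant HCN gene in every column, at 6.39 and 6.98 FPKM at E11.5 (0.13) and 20.3 and 15.1 FPKM at E14.5 (-0.42). Hcn2 was at 3.80 and 2.64 FPKM (-0.51) and 9.70 and 9.30 FPKM (-0.06), and Hcn4, the slow pacemaker isoform of the sinoatrial node, at 2.54 and 1.72 FPKM (-0.54) and 13.9 and 10.7 FPKM (-0.37). No HCN gene was lower by 1.5-fold on the deposited scale. At E11.5, Hcn4 was lower after centring on the median of all genes (-0.59). Hcn2 (-0.74) and Hcn4 (-0.76) were lower after rescaling without erythroid genes. The summed HCN FPKM was 14.1 and 14.2 at E11.5 and 43.9 and 35.1 at E14.5.

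Of the 8 TRP channel genes at E11.5, 3 were higher (37.5%, against 18.9% of all genes) and 1 was lower (12.5%, against 12.9%) in the CKO. After centring on the median of all genes, or rescaling without erythroid genes, 1 of the 8 was higher. Trpc7, a channel opened by diacylglycerol after receptor activation, was at 0.657 FPKM in controls and 1.43 FPKM in the CKO (1.02). Trpm4, a cation channel opened by internal calcium, was at 2.01 and 3.12 FPKM (0.61). Trpc2, the TRP channel of the vomeronasal organ, had the widest ratio of all the channel genes, 6.16-fold lower, at 1.39 FPKM in controls and 0.142 FPKM in the CKO (-2.62), and these are levels near the limit of the table. None of the 4 genes was past 1.5-fold at E14.5, where Trpc2 was at 1.37 and 1.33 FPKM. The most abundant TRP genes, Trpm7, a magnesium-permeable channel fused to a kinase, and Trpv2, a channel of sensory and sympathetic neurons, were within the limit at both stages: Trpm7 was at 16.9 and 13.3 FPKM (-0.35) and 15.3 and 16.8 FPKM (0.13), and Trpv2 at 11.5 and 13.1 FPKM (0.19) and 29.9 and 23.8 FPKM (-0.33).

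Trpv1, the capsaicin and heat receptor of nociceptors, was the only channel gene higher in the E14.5 hypomorph, at 0.559 FPKM in wildtype and 1.01 FPKM in hypomorph ganglia (0.76), next to the level that admits a gene to the table. Of a list of 14 sensory neuron genes, 3 were in the E14.5 table, and 1 of them, Neurod1, was also higher (1.3 and 2.48 FPKM, 0.88), while Tlx2 and Prrxl1 had ratios of -0.35 and -0.44; their part in the Trpv1 value was not tested. At E11.5, 6 of the list were present, and Neurog2 (0.212 and 2.70 FPKM), Pou4f1, Isl2 and Neurod1 were higher in the CKO, while the most abundant of the list, Tlx2 (65.1 and 49.7 FPKM, -0.39) and Prrxl1 (10.1 and 7.98 FPKM, -0.33), were within 1.5-fold. Trpm3, also listed at E14.5 alone, was at 1.21 and 1.08 FPKM (-0.16). Among 14 listed partners and relatives of HCN and TRP channels, 2 were lower (14.3%, against 12.9% of all genes) and 3 higher (21.4%, against 18.9%) at E11.5. At E14.5, 0 of 13 were past 1.5-fold.

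Ryr2, the ryanodine receptor of heart and brain, was at 3.27 FPKM in E11.5 controls and 0.825 FPKM in the CKO, 3.64-fold lower (-1.86), and at 21.3 FPKM in E14.5 wildtype and 13.0 FPKM in hypomorph ganglia, 1.63-fold lower (-0.71). Ryr3 was at 2.43 and 1.25 FPKM (-0.91) and at 4.23 and 3.01 FPKM (-0.48). Ryr1, the skeletal muscle form, was listed only at E14.5, at 3.15 and 2.65 FPKM (-0.24). Every ryanodine receptor ratio was thus below 0, and their summed FPKM was 5.70 and 2.07 at E11.5 and 28.7 and 18.7 at E14.5. The inositol trisphosphate receptors, which open on signals from the cell surface, were mixed at E11.5: Itpr1, the neuronal form, was at 4.94 and 2.84 FPKM (-0.78), and Itpr3, common in epithelia and non-neuronal cells, was at 1.87 and 3.71 FPKM (0.95). At E14.5 Itpr1 was at 3.98 and 4.70 FPKM (0.23), Itpr3 at 5.03 and 5.02 FPKM, and Itpr2 at 1.11 and 1.38 FPKM (0.30). Within the release channels, Itpr3 held 15.0% of FPKM in E11.5 controls and 43.0% in the CKO, and Ryr2 held 26.1% and 9.57%.

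A wider list of 39 calcium channel and calcium store partners had 35 genes in each table. At E11.5, 3 were lower (8.57%, against 12.9% of all genes) and 7 higher (20.0%, against 18.9%), shares close to those of all genes (median 0.13), and at E14.5, 0 were lower and 1 higher (median -0.05). The lower genes at E11.5 were Gem, a small GTPase that holds calcium channels down (4.59 and 1.64 FPKM, -1.43), Atp2b2, a plasma membrane calcium pump (4.88 and 2.48 FPKM, -0.95), and Jph1, a junctophilin that joins store and plasma membrane (1.37 and 0.680 FPKM, -0.92). Of the sensors and pores of store-operated calcium entry, Stim1 (0.67), Orai1 (0.85) and Orai3 (0.85) were higher, and Stim2 (-0.29) and Orai2 (0.03) were within 1.5-fold. Gem was the gene higher at E14.5, at 5.20 and 9.32 FPKM (0.83).

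Ryr2 and Cacna1e were the only channel genes at least 1.5-fold lower in both mutants, 2 of the 43 listed at both stages, where 0.534% of the 12728 genes listed at both were. A further 16 had ratios below 0 at both stages without passing the limit in both, 7 had ratios above 0 at both, and 18 changed sign. This count rests on the scale: with ratios centred by transcript length Cacna1e was within 1.5-fold at E11.5, and relative to the pan-neuronal median neither gene was past 1.5-fold at E14.5. Ryr2 lies on the minus strand of chromosome 13, from 11645370 to 12199212, and Cacna1e on the minus strand of chromosome 1, from 156239649 to 156573049 (mm9 annotation). Their start regions are shown because these 2 genes were lower in both mutants on the deposited scale. Each runs from 250 bases before to 50 after the RefSeq start of transcription on GRCm38.p6, a different build from the FPKM tables, at chr13:12106896-12107195 for Ryr2 and chr1:154725871-154726170 for Cacna1e, both read on the minus strand. Capitals mark matches on either strand to TAAT, the core of many homeodomain sites, or to GGGCGG, the GC box of Sp family factors.
Ryr2: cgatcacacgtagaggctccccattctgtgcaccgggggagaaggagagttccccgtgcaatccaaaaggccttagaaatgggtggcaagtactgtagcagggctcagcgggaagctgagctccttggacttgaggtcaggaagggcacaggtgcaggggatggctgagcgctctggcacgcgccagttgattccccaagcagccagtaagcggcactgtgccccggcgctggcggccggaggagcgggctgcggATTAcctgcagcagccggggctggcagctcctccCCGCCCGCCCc
Cacna1e: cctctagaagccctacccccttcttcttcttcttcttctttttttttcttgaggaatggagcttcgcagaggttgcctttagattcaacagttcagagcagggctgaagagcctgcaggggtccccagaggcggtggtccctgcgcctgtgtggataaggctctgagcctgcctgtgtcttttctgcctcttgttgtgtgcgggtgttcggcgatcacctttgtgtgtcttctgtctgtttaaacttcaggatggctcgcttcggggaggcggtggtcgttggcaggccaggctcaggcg
The Ryr2 window held 1 match to TAAT, which lies after the start of transcription, and 2 overlapping matches to GGGCGG, and the Cacna1e window held no match to either. A RefSeq start region was found for 35 of the 49 channel genes: TAAT occurred in 19 of them (54.3%) and in 61.4% of all 27025 genes with such a region, and GGGCGG in 19 (54.3%) against 38.2%. CTAATG was found in 4 (11.4%, against 8.49%), CTAATT in 3 (8.57%, against 9.43%) and TATAAA in 3 (8.57%, against 15.7%); CTAATG and CTAATT contain TAAT. The median GC content of the channel gene regions was 62.0%, and that of all regions was 52.8%. These are matches of letters in short windows, not sites of binding.

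**Figure D3:**
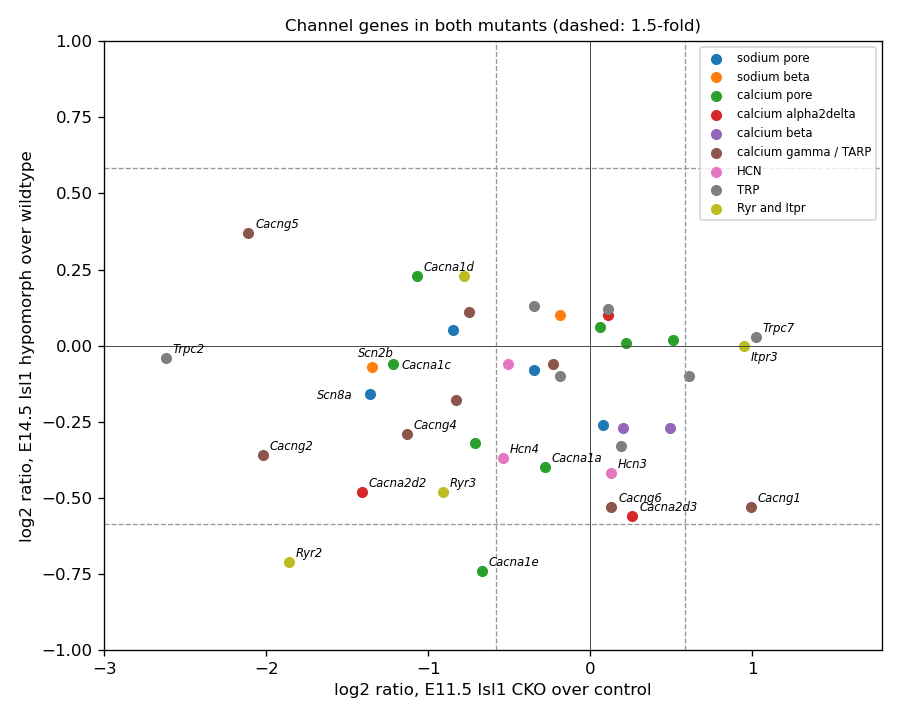
Log2 ratio of the E11.5 Isl1 CKO over its control (horizontal) against that of the E14.5 hypomorph over wildtype (vertical) for 41 of the 43 channel genes listed at both stages, 1 point per gene, coloured by class, with dashed lines at 1.5-fold. The horizontal spread, -2.62 to 1.02, is wider than the vertical, -0.74 to 0.37, and Ryr2 and Cacna1e alone lie past 1.5-fold at the lower left.

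At E14.5 small differences leaned one way. At a limit of 1.2-fold, 16 of 48 channel genes (33.3%) were lower in the hypomorph, where 9.01% of all genes were, and 3 were higher, where 12.2% were. The 16 were the 3 Cav2 pores, Cacna2d2, Cacna2d3, Cacnb1, Cacnb3, Cacng1, Cacng2, Cacng4, Cacng6, Hcn3, Hcn4, Ryr2, Ryr3 and Trpv2, and no sodium channel gene was among them. Pan-neuronal genes leaned the same way, with 14 of 25 lower by 1.2-fold (56.0%) and 4 higher, while 9 of 10 endothelial, 6 of 10 mesenchyme and 5 of 9 macrophage genes were higher by 1.2-fold; their part in the channel values was not tested. Differences of this size have no replicate error to be set against.

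Reading the channel genes against the neuronal genes of the same column raised every ratio of a stage by the same amount. The distance of the channel genes from all genes therefore stayed as it was, while signs and counts past 1.5-fold changed. With ratios centred on the median of the pan-neuronal list, 10 of the 17 genes lower at E11.5 stayed lower (22.7% of the 44 channel genes, against 4.34% of all genes): Cacna1c, Cacna1d, Cacna2d2, Cacng2, Cacng4, Cacng5, Ryr2, Scn2b, Scn8a and Trpc2. On this scale 15 were higher (34.1%, against 44.5% of all genes). The median of the channel genes turned from -0.25 to 0.21, and that of all genes went from 0.05 to 0.51. Of 8 families, 5 kept the sign of their E11.5 median on every scale tried, and 3 did not: the HCN median turned from -0.19 to 0.27 on this scale, and the T-type median (0.14) and TRP median (0.15) turned to -0.09 and -0.08 when FPKM was rescaled to equal sums without erythroid genes. That rescaling gave 19 lower (43.2%) and 4 higher (9.09%) channel genes at E11.5, and over all genes it moved the share lower from 12.9% to 22.5% and the share higher from 18.9% to 12.2%. At E14.5 the pan-neuronal scale left 0 channel genes lower (against 1.06% of all genes) and 2 higher, Cacng5 and Trpv1 (4.17%, against 10.0%). The median of the channel genes went from -0.07 to 0.21, and that of all genes from 0.00 to 0.29. The sodium pores and TARPs turned from -0.12 to 0.16.

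Transcript length went with the E11.5 ratios over the whole table. Among all genes, the median log2 ratio was 0.23 for genes whose longest annotated transcript was 1 to 2 kb, 0.04 for 3 to 4 kb, -0.25 for 6 to 8 kb and -0.42 for 8 kb or more, and the share lower by 1.5-fold was 6.01%, 10.2%, 23.1% and 35.3% in the same bins. At E14.5 the same medians lay between -0.01 and 0.02. Channel genes were long, with a median of 4.54 kb against 3.14 kb for all genes of the E11.5 table with a length, and sodium and calcium pores and release channels were the longest, up to 16.8 kb for Ryr2. On either side of a split at 6 kb the channel genes had the larger share lower at E11.5. It was 9 of 18 channel genes of 6 kb or more (50.0%, against 27.6% of all such genes) and 8 of 26 shorter ones (30.8%, against 10.4%). The split does not match length, because the channel genes were longer on both sides. Their median was 9.07 kb against 7.41 kb above the split and 3.6 kb against 2.85 kb below it. With each ratio centred on the median of genes of like length, 12 channel genes remained lower (27.3%, against 12% of all genes). Cacna1b, Cacna1e, Itpr1, Ryr3 and Scn3a were no longer past 1.5-fold. With this centring 8 channel genes were higher, Cacna1g and Cacna1s among them. That share (18.2%) was close to the share of all genes (17.1%). The TARP genes, with transcripts of 0.663 to 5.51 kb, kept 5 of 6 lower (median -1.11), while the sodium pore median went from -0.60 to -0.18 and the Cav2 median from -0.67 to -0.25. Ryr2 and Cacna1e were still the genes lower at E14.5 on this scale. The source of the length trend was not tested.

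**Figure D4:**
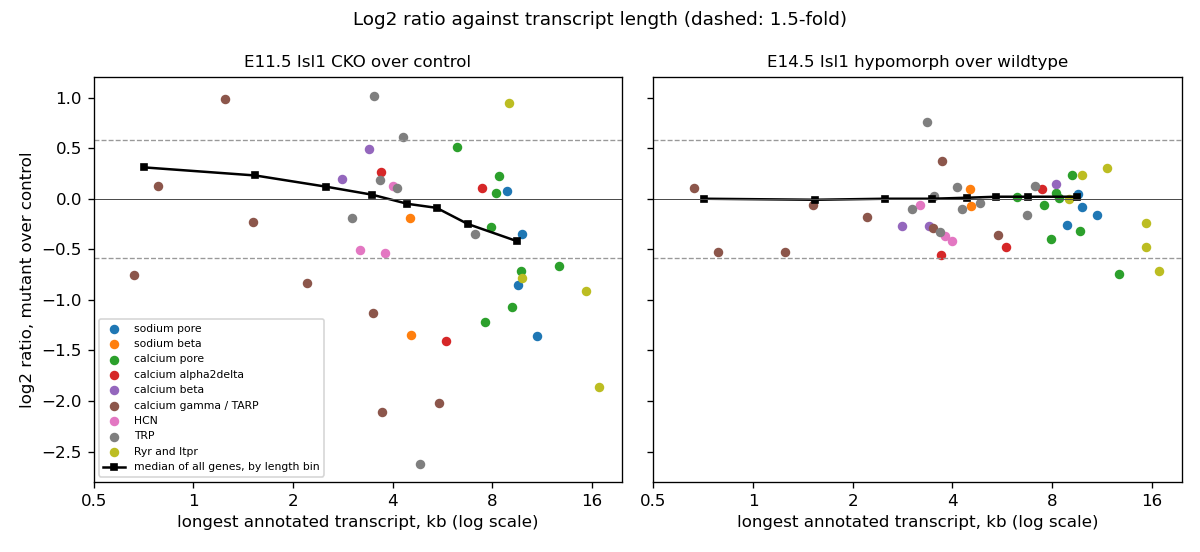
Log2 ratio of mutant over control for the channel genes (points, 46 genes in all, coloured by class) against its longest annotated transcript in kb on a log axis, at E11.5 on the left and E14.5 on the right; black squares join the median ratio of all genes in bins of transcript length, and dashed lines mark 1.5-fold. The line runs from 0.31 in the shortest bin to -0.42 in the longest at E11.5 and stays between -0.01 and 0.02 at E14.5, and 5 of the 6 TARP genes lie at least 1.5-fold below the median of their bin at E11.5.

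Between the control columns of the stages, channel genes were higher at the later one. Of the 43 listed at both stages, 33 were at least 1.5-fold higher in E14.5 wildtype than in E11.5 control ganglia (76.7%, against 29.7% of all 12728 genes) and 0 were lower (against 12.7%). The tables were normalised separately and the control genotypes differ, so the levels are set side by side. The median log2 ratio of the channel genes was 1.04, that of all genes 0.24, and that of the 25 pan-neuronal genes 1.04, of which 19 were higher, so that relative to the pan-neuronal list the channel median was 0.00. By rank, which needs no scaling between tables, 37 of the 43 stood higher among the genes of both tables at E14.5, and their median percentile of level was 17.6 at E11.5 and 28.7 at E14.5.

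Members differed around that median. Ryr2 had the widest ratio (3.27 and 21.3 FPKM, 6.37-fold), followed by Scn2a1 (1.41 and 8.64 FPKM, 5.79-fold), Hcn4 (2.54 and 13.9 FPKM, 5.32-fold), Cacna1a (2.58 and 13.5 FPKM, 5.06-fold), Cacna2d2 (4.73-fold), Cacng1 (4.07-fold) and Cacna1b (10.0 and 40.6 FPKM, 4.01-fold). These genes, with Cacnb1 and Hcn3, were the 9 that exceeded the pan-neuronal median by 1.5-fold or more. The 10 that lay at least 1.5-fold below it included Cacna1d, both T-type pores, Cacna2d1, Cacna2d3, Scn3b, Itpr1, Trpc2 and Trpm7. Among all genes listed at both stages, a smaller share exceeded that median by 1.5-fold, and most lay at least 1.5-fold below it. A place below it was therefore less frequent among channel genes than among all genes. Itpr1, Trpc2 and Trpm7 had a lower FPKM at E14.5 than at E11.5, none by 1.5-fold. The T-type genes had a smaller place among calcium pores at E14.5: Cacna1g and Cacna1h held 12.2% and 16.2% of calcium pore FPKM in E11.5 controls and 4.98% and 8.15% in E14.5 wildtype ganglia. Hcn4 held 18.0% and 31.7% of HCN FPKM, and Itpr1 39.5% and 10.2% of release channel FPKM. Ryr2, which differed most between the stages, was also the gene of widest ratio among release channels in either mutant.

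**Figure D5:**
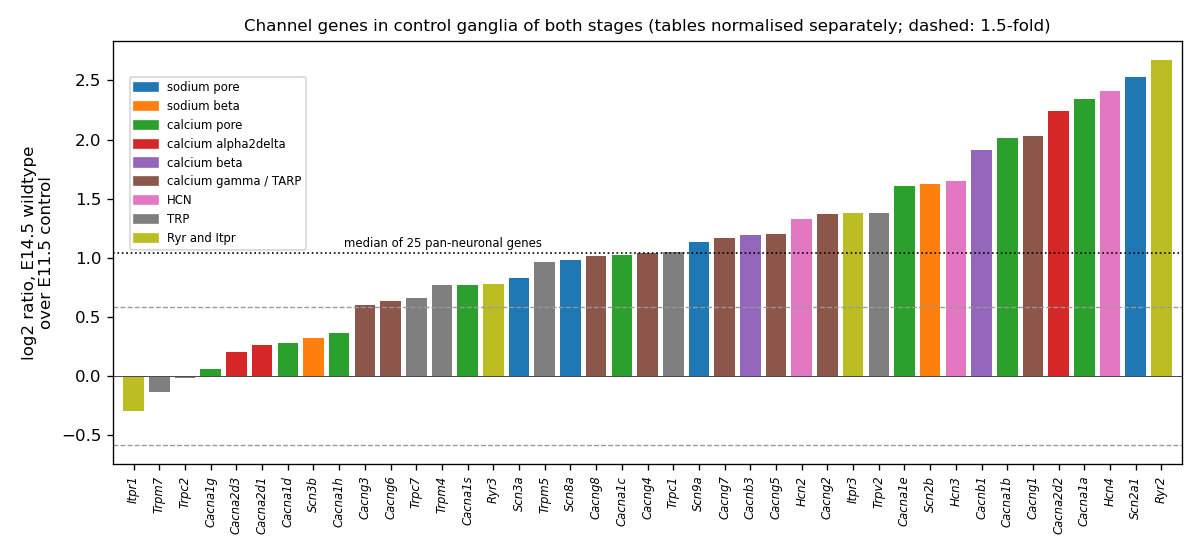
Log2 ratio of FPKM in E14.5 wildtype over E11.5 control ganglia for 41 of the 43 channel genes listed at both stages, sorted and coloured by class, with dashed lines at 1.5-fold and a dotted line at the median of the 25 pan-neuronal genes (1.04); the tables were normalised separately. Bars run from -0.30 for Itpr1 to 2.67 for Ryr2, and 32 pass the upper dashed line.

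Many of these genes were listed at low levels: 28 of 44 were under 5 FPKM in both genotypes at E11.5, and 20 of 48 at E14.5. In addition, 11 of the 44 at E11.5 and 1 of the 48 at E14.5 were under 1 FPKM in 1 genotype, so the other genotype alone admitted them. At E11.5 the lower-expressed members held 11 of the 17 lower genes, 11 of 22 against 6 of 22 at a mean of 2.46 FPKM or more. The strand setting of the counting was not given in the sources used here, and exons of Cacna1d, Cacna1h, Hcn3, Ryr3 and Trpm5 overlap those of a protein-coding gene on the other strand, so their values are uncertain to that extent. Scn8a has no position here because its symbol was not unique in the mm9 annotation.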

How the data were processed

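Sympathetic ganglia were profiled by RNA-seq (oligo(dT) mRNA, SMARTer cDNA, paired-end Illumina HiSeq), with 2 libraries per genotype and stage. By the study's methods, reads were mapped to mm9 with TopHat and quantified with cuffdiff; the submitters' processing notes name TopHat 1.3.1, Cuffdiff 1.3.0 and a fruit fly build in place of mm9. The deposited tables hold, for each gene of 1 FPKM or more in either genotype, 1 FPKM per genotype that the authors combined from its libraries, so read counts and depth per library are unknown and precision cannot be given. The tables also hold the authors' fold changes and p-values, which were not used.

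Here log2((mutant FPKM + 0.1)/(control FPKM + 0.1)) was computed for every gene (Python 3.11.15, pandas 2.3.3, numpy 2.4.6; figures with matplotlib 3.10.9), and genes at least 1.5-fold apart were counted with no test, beside the share of all genes. Values of 3 channel genes are not reported here, though the counts include them. The arithmetic alone was checked, on data simulated from the control levels with set fold changes. That check did not cover the filter on low values or the length trend. Named were genes past 1.5-fold in either table, those in 1 table only and the 2 highest of each class and column; Scn2a1, Cacna1g, Cacna1s, Cacng6 and the partner and marker genes given with values were chosen after their values were seen. Channel genes and gene lists were chosen with earlier results of these data known. Positions and transcript lengths are from the mm9 GENCODE annotation, and start regions from RefSeq. Alternatives were pseudocount, filters, fold limit and scaling, with centring by transcript length and all alternatives for the counts between stages added after seeing the data.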

Additional observations from a re-analysis of the deposited data

How the results depend on the processing

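No paired analysis was possible because the deposited columns combine the libraries of a genotype and carry no replicate numbers, and for the same reason no library could be left out. Percentages in brackets are shares of all genes under the same setting. The E11.5 count of 17 lower channel genes was 5 of 16 among genes of 5 FPKM or more (12.9%). It was 11 of 33 with 1 FPKM or more in both genotypes (11.8%), 10 relative to the pan-neuronal median (4.34%) and 10 at 2-fold (4.83%). The 7 higher were 3 with a pseudocount of 1 (15.0%) and 1 at 5 FPKM or more (15.1%). They were 4 at 1 FPKM or more in both genotypes (15.5%) and 4 after rescaling without erythroid genes (12.2%). Relative to the pan-neuronal median they were 15 (44.5%), and at 2-fold 1 (8.42%). The 2 lower at E14.5 were 1 with a pseudocount of 1 and 1 at 5 FPKM or more, 0 relative to the pan-neuronal median, 0 at 2-fold and 16 at 1.2-fold; the 1 higher was 0 with a pseudocount of 1, at 5 FPKM or more, at 1 FPKM or more in both genotypes and at 2-fold, 2 relative to the pan-neuronal median and 3 at 1.2-fold. The E11.5 median of -0.25 was -0.48 after rescaling (all genes -0.18) and 0.21 relative to the pan-neuronal median (all genes 0.51), and the E14.5 median of -0.07 was 0.21 on that scale (all genes 0.29). The median of 1.04 between stages was 0.84 with a pseudocount of 1, 1.18 at 5 FPKM or more, 0.81 centred on all genes or on genes of like transcript length, and 0.0 relative to the pan-neuronal median. For the counts between stages, whose alternatives were added after seeing the data, the 33 higher were 9 relative to the pan-neuronal median, and the 0 lower were 10 on that scale, 2 at 1.2-fold and 1 by length. Of all genes, a smaller share was higher relative to the pan-neuronal median, and a larger share was lower under each of these settings. Fewer genes enter under the stricter filters and fold limits; the cause of the other differences was not tested. None of the 24 genes past 1.5-fold at E11.5 or the 3 at E14.5 changed sign with another pseudocount, filter or scaling. Unknown depth limits most the genes near 1 FPKM, such as Trpc2, Trpc7, Cacng1, Cacng2 and Trpv1.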
